A study of Mus musculus with 12 samples.

Results

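The opioid and cannabinoid receptors and the opioid peptide precursors were followed in mouse sensory ganglia. The group holds 9 of the 22609 genes counted, chosen by symbol: the opioid receptor genes Oprm1 (mu), Oprd1 (delta), Oprk1 (kappa) and Oprl1 (nociceptin receptor), the precursor genes Penk, Pdyn and Pnoc, and the cannabinoid receptor genes Cnr1 and Cnr2. All 9 had a row in each of the 12 count files. RNA was sequenced after the dissociated ganglia had been run on a Percoll density gradient to enrich their sensory neurons. The fractions came from dorsal root ganglia (DRG), whose neurons serve the body, and trigeminal ganglia (TG), whose neurons serve the face and head. The study's methods name only a few lumbar levels for the DRG, so the DRG libraries do not stand for the whole body. There were 3 libraries for each sex and ganglion, and all were from naive C57BL mice with no transgene or treatment given in the labels. The labels give an age of 3 to 4 months, whereas the study's methods give a younger range and place the females in the estrous phase.

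The opioid receptors and both cannabinoid receptors are G protein-coupled receptors that act mainly through inhibitory Gi/o proteins. In sensory neurons this coupling lowers adenylyl cyclase activity, closes voltage-gated calcium channels and can open inwardly rectifying potassium channels, which reduces transmitter release. The opioid peptides are cut from the precursors Penk (enkephalins), Pdyn (dynorphins) and Pnoc (nociceptin), whereas the endocannabinoids are lipids made and broken down by enzymes.

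The precursors carry the short cores that open the opioid peptides, and these are shown to make plain which ligands the scarce precursor transcripts would encode. In the GENCODE transcripts of the genome build used by the study (mm9), Penk held 7 copies of the enkephalin core, 6 with ATG (methionine) and 1 with another codon at its end, and Pdyn held 3 copies. Pnoc held 1 nociceptin core. All lie on the minus strand in coding exons: exon 2 of 2 in Penk, exon 4 of 4 in Pdyn and exon 3 of 4 in Pnoc. Capitals mark the 5 codons of the core, and lower case marks the 2 codons on either side. The sequences run 5′ to 3′.
Penk met-enkephalin core, chr4:4061475-4061501: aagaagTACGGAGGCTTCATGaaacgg
Penk leu-enkephalin core, chr4:4061082-4061108: aagaggTATGGGGGCTTCCTGaagcgc
Pdyn core 1, chr2:129513968-129513994: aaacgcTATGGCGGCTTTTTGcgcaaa
Pdyn core 2, chr2:129513860-129513886: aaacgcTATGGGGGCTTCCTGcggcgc
Pdyn core 3, chr2:129513803-129513829: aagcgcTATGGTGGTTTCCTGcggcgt
Pnoc core, chr14:66023709-66023735: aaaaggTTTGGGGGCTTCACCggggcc

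Reads in genes numbered between 7511765 and 15396090 per library, with a median of 11663521.5. A count of 3, taken as the floor, stood for 0.207 to 0.357 CPM, the unit used for levels of 1 gene, which is the read count per 1e+06 reads of the TMM-scaled library total. A floor of this kind covers counting error only. Reads outside annotated genes made up 37.6% to 50.4% of the reads in genes and outside genes together. Ambiguous reads, unaligned reads and those matching several places were left out of this share. All 7 pan-neuronal markers were measured in both ganglia, and their summed level was 3653 to 7657 CPM in DRG and 3501 to 6342 CPM in TG. Schwann cell markers also summed to 2483 to 3480 CPM in DRG and 2233 to 3425 CPM in TG, so the fractions were not pure neurons. In such bulk RNA, fewer cells of a type and less RNA per cell cannot be told apart. The labels do not say whether TG and DRG libraries share animals, and p-values measure only the spread between these samples.

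Oprl1, Cnr1 and Oprm1 were the members with the highest levels in both ganglia. Levels of different genes were compared as RPKM, here TMM-scaled CPM per kilobase of the gene's merged exons. In TG the mean was 23.4 ± 6.49 RPKM (SD, n = 6) for Oprl1, 17.7 ± 4.88 for Cnr1 and 6.92 ± 0.619 for Oprm1. In DRG the same genes were at 15.7 ± 6.51, 11.8 ± 3.05 and 7.08 ± 0.678 RPKM (n = 6). The ranges of Oprl1 and Cnr1 overlapped in each ganglion, so their order did not hold beyond the spread, whereas every library had Cnr1 above the range of Oprm1 and Oprm1 above the range of the next gene.

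The remaining members were low. In TG the order went on with Oprk1 (1.39 RPKM), Oprd1 (1.31), Penk (0.444), Cnr2 (0.293), Pdyn (0.170) and Pnoc (0.169). In DRG it went on with Penk (2.79 RPKM), Oprd1 (1.61), Oprk1 (0.809) and Cnr2 (0.301), and Pdyn and Pnoc had no count. Each of these genes overlapped with the next in the order, so neighbours did not differ beyond their spread. Some genes further apart did not overlap: Oprk1 in TG lay above Pdyn in every library (lowest 0.540 against highest 0.536 RPKM), and Oprd1 in DRG lay above Cnr2 (lowest 0.747 against highest 0.634).

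The place of Oprm1 depends on the length assigned to it. The annotation gives Oprm1 35 transcripts, with 8156 bases of merged exons but only 2749 bases in the longest transcript. Per kilobase of the longest transcript, Oprm1 was at 20.5 RPKM in TG, where it ranked 2, and at 21 RPKM in DRG, where it ranked 1, and its range then overlapped those of Oprl1 and Cnr1. Which of its transcripts were present is not given by gene counts.

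**Figure D1:**
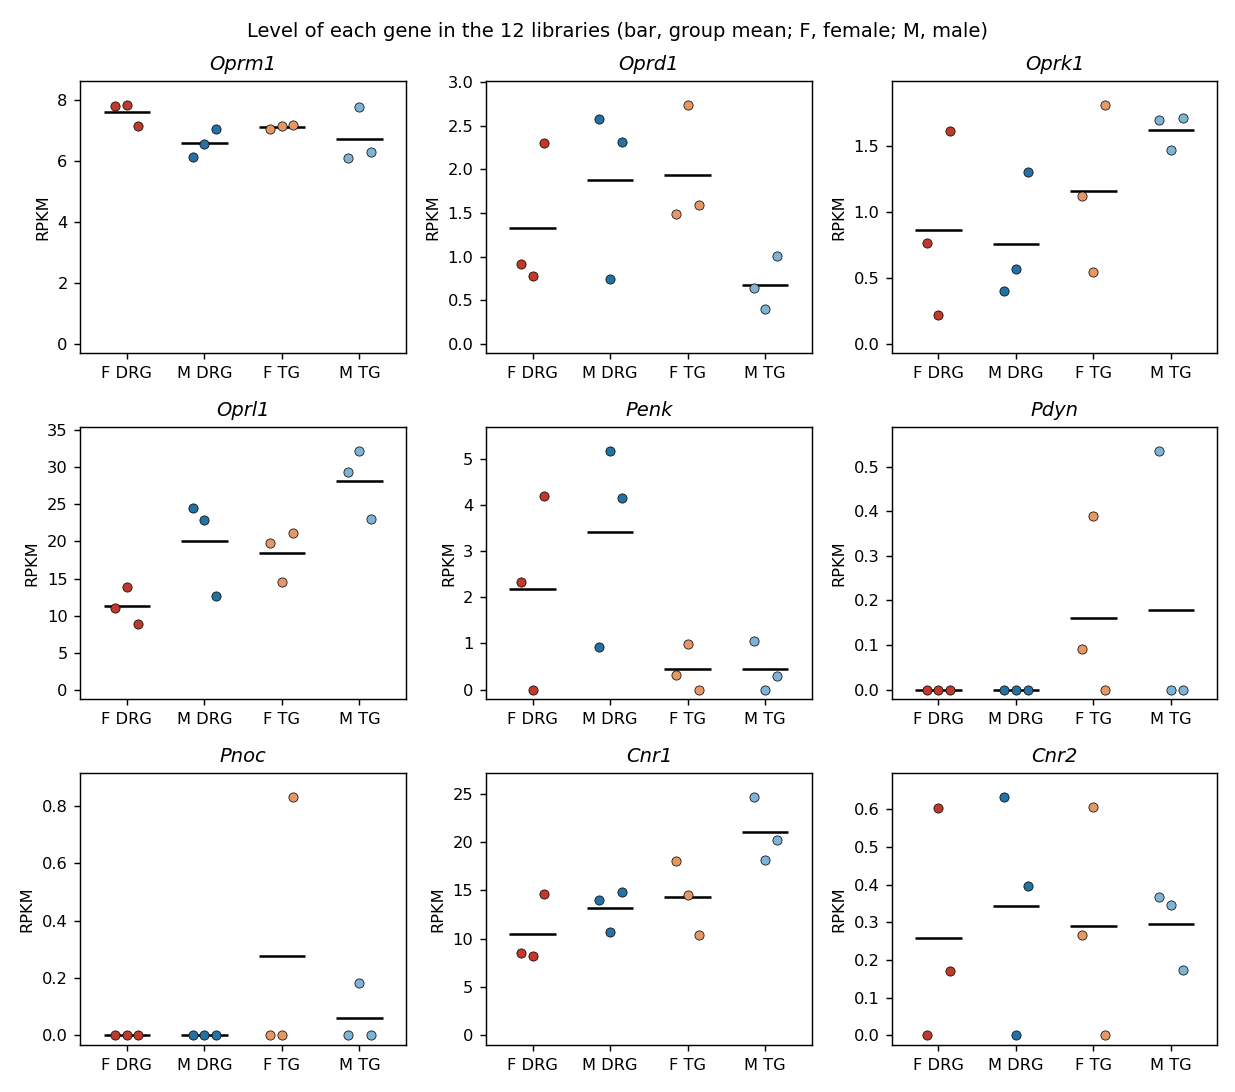
RPKM (TMM-scaled CPM per kilobase of merged exons) of the 9 genes in each of the 12 libraries, by sex (F, M) and ganglion, with a bar at each group mean of 3 libraries; the vertical scale starts just below 0 and differs between panels. Oprm1 stays between 6.10 and 7.83 RPKM in every library, and Pdyn and Pnoc have no count in any DRG library.

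Oprm1 (ENSMUSG00000000766.11, chr10:3308332-3588035, minus strand), which encodes the mu receptor through which morphine acts, had nearly the same level everywhere after TMM scaling. It was at 63.5, 63.9 and 58.2 CPM in female DRG, at 49.8, 53.4 and 57.5 in male DRG, at 57.4, 58.2 and 58.5 in female TG and at 49.7, 63.3 and 51.3 in male TG. The TG and DRG libraries covered almost the same range. The TG over DRG log2 fold change was -0.03 (SE 0.164, 95% interval -0.351 to 0.291, edgeR adjusted p = 1), so the interval leaves room for only a small difference. The coefficient of variation over the 12 libraries was 8.92%. Among the 2593 tested genes whose mean CPM lay within a factor of 1.5 of that of Oprm1, the median was 29.4%, and 0.0771% of them varied less. This measure was computed after the values of Oprm1 had been seen. It also rests on the TMM scaling: by library totals alone, Oprm1 ran from 46.2 CPM in male DRG 1 to 71.1 CPM in female DRG 1. Exons of Ipcef1 on the other strand overlap Oprm1 over 96 bases, and since the strand setting of the counting was not given, reads there cannot be assigned with certainty.

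Oprm1 held the largest part of the 3 classical opioid receptor transcripts. Per kilobase, its share of the sum of Oprm1, Oprd1 and Oprk1 was 72.1% ± 4.70 in TG and 75.4% ± 10.5 in DRG (SD, n = 6). The lowest, median and highest shares were 67.9%, 71.1% and 80.7% in TG and 64.6%, 74.7% and 88.7% in DRG. The ganglia overlapped throughout. Oprd1 followed with 13.3% in TG and 16.5% in DRG, and Oprk1 with 14.7% in TG and 8.15% in DRG. When the nociceptin receptor was added to the sum, Oprl1 alone made up 69.8% in TG and 60.2% in DRG. Per kilobase of the longest transcript its share was 53.4% in TG and 43.0% in DRG, and of raw counts 54.3% and 44.4%, so it was the majority in DRG on the merged-exon scale only.

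Oprd1 (ENSMUSG00000050511.1, chr4:131666641-131700401, minus strand), the delta receptor gene and a receptor for enkephalins, varied widely within groups. It was at 3.69, 3.11 and 9.23 CPM in female DRG, at 10.4, 3.00 and 9.30 in male DRG, at 5.98, 11.01 and 6.39 in female TG and at 2.55, 1.59 and 4.03 in male TG. The male TG libraries lay below the female TG libraries, and the ganglia overlapped. The coefficient of variation of Oprd1 over the 12 libraries was 57.2%, near the median of 54.2% for tested genes of like mean CPM. The TG over DRG log2 fold change was -0.47 (SE 0.481, edgeR adjusted p = 0.929). In females alone the sign was opposite, at 0.56 (edgeR adjusted p = 1).

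Oprk1 (ENSMUSG00000025905.7, chr1:5578574-5596212, plus strand), the kappa receptor gene and a receptor for dynorphins, was as scattered. It was at 5.23, 1.51 and 11.01 CPM in female DRG, at 2.71, 3.85 and 8.91 in male DRG, at 7.66, 3.70 and 12.4 in female TG and at 11.6, 10.0 and 11.7 in male TG. The 3 male TG libraries sat close together near the upper end of the range, whereas the other groups spread over most of it. The coefficient of variation of Oprk1 over the 12 libraries was 52.3%, near the median of 49.3% for tested genes of like mean CPM. The TG over DRG log2 fold change was 0.76 (SE 0.481, edgeR adjusted p = 0.763), with an interval of -0.184 to 1.70.

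Oprl1 (ENSMUSG00000027584.7, chr2:181449721-181455690, plus strand) encodes the receptor for nociceptin, which does not bind the classical opioid peptides with high affinity. It was at 41.3, 52.1 and 33.3 CPM in female DRG, at 92.3, 86.0 and 47.7 in male DRG, at 74.5, 54.6 and 79.2 in female TG and at 110, 121 and 86.4 in male TG. The lowest library was a female DRG library and the highest a male TG library, and both the ganglia and the sexes overlapped when all 12 libraries were pooled. The mean was 87.6 ± 24.3 CPM in TG and 58.8 ± 24.4 CPM in DRG (n = 6). The TG over DRG fold was 1.52 (log2 fold change 0.60, SE 0.205), and it did not pass adjustment in edgeR over all genes (adjusted p = 0.269).

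Among the peptide precursors only Penk, and only in DRG, had more than traces. In TG the summed counts were 50 for Penk, 34 for Pdyn and 25 for Pnoc. Penk (ENSMUSG00000045573.9, chr4:4060678-4065966, minus strand), the enkephalin precursor gene, had 32, 0 and 81 counts in female DRG, 16, 90 and 86 in male DRG, 6, 20 and 0 in female TG and 19, 0 and 5 in male TG. At least 1 library of each ganglion had no count, so the ganglia overlapped, although 4 of the 6 DRG libraries exceeded every TG library. The mean was 4.56 ± 3.35 CPM in DRG and 0.726 ± 0.766 CPM in TG (n = 6). The log2 fold change was -2.61 (SE 1.17), which did not pass adjustment in edgeR (adjusted p = 0.523). Exons of A830012C17Rik on the other strand overlap Penk over 233 bases, so these low counts share the uncertainty of strand.

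Neutrophil markers moved with Penk between the ganglia. Of the 4 listed, 3 were in the files, and their summed level ran from 8.13 through a median of 22.8 to 92.7 CPM in DRG and from 0.0804 through 5.74 to 10.8 CPM in TG. None of the 3 passed the adjusted test in edgeR, while all 3 were lower in TG at an unadjusted p under 0.05. Their part in the Penk values was not tested.

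Pdyn (ENSMUSG00000027400.5, chr2:129512301-129525580, minus strand), the dynorphin precursor gene, had 0 counts in all 6 DRG libraries, 3, 14 and 0 counts in female TG and 17, 0 and 0 in male TG. Pnoc (ENSMUSG00000045731.4, chr14:66019510-66044046, minus strand), the nociceptin precursor gene, had 0 counts in all 6 DRG libraries, 0, 0 and 20 counts in female TG and 0, 5 and 0 in male TG. A count of 0 in DRG leaves room for levels up to the floor of 0.236 to 0.357 CPM. Both genes failed the filter on low counts and were not tested, and no fold is given.

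Cnr1 (ENSMUSG00000044288.6, chr4:34011568-34035806, plus strand), the cannabinoid receptor gene typical of neurons, was at 55.1, 53.0 and 94.4 CPM in female DRG, at 90.4, 68.8 and 95.2 in male DRG, at 115.9, 93.7 and 66.9 in female TG and at 159, 117 and 129.9 in male TG. The 3 male TG libraries were the highest of the 12, and the female TG libraries overlapped both DRG groups. The mean was 113.7 ± 31.4 CPM in TG and 76.2 ± 19.7 CPM in DRG (n = 6). The TG over DRG fold was 1.48 (log2 fold change 0.56, SE 0.202), without passing adjustment in edgeR (adjusted p = 0.326).

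Cnr2 (ENSMUSG00000062585.5, chr4:135451309-135476122, plus strand), the cannabinoid receptor gene typical of immune cells, had 0, 27 and 8 counts in female DRG, 27, 0 and 20 in male DRG, 12, 30 and 0 in female TG and 16, 20 and 7 in male TG. Each ganglion held libraries at 0 beside libraries well above the floor. The log2 fold change was -0.03 with an SE of 1.31 (edgeR adjusted p = 1) and an interval of -2.59 to 2.54, so a difference of a few-fold was not detectable at this depth. All 7 macrophage markers were measured, with a summed level of 70.3 to 228.3 CPM in DRG and 62.6 to 316.7 CPM in TG. The 5 lymphocyte markers summed to 0 to 6.07 CPM in DRG and 0 to 1.11 CPM in TG, where Ms4a1 had no count. Their part in the Cnr2 values was not tested.

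For TG against DRG as a whole, 7 of the 9 members could be tested and none passed an adjusted p under 0.05 in edgeR, where 0.964% of the 14829 genes tested did so. With a fold above 2 added to the rule it was again 0 of 7, beside 0.769%. At an unadjusted p under 0.05 there were 3 of 7, with Oprl1 and Cnr1 higher in TG and Penk higher in DRG, beside 8.83% of all genes tested. With DESeq2 in place of edgeR none of the 7 passed adjustment either. None of the members had ganglia that did not overlap, and 1.36% of all genes tested did.

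**Figure D2:**
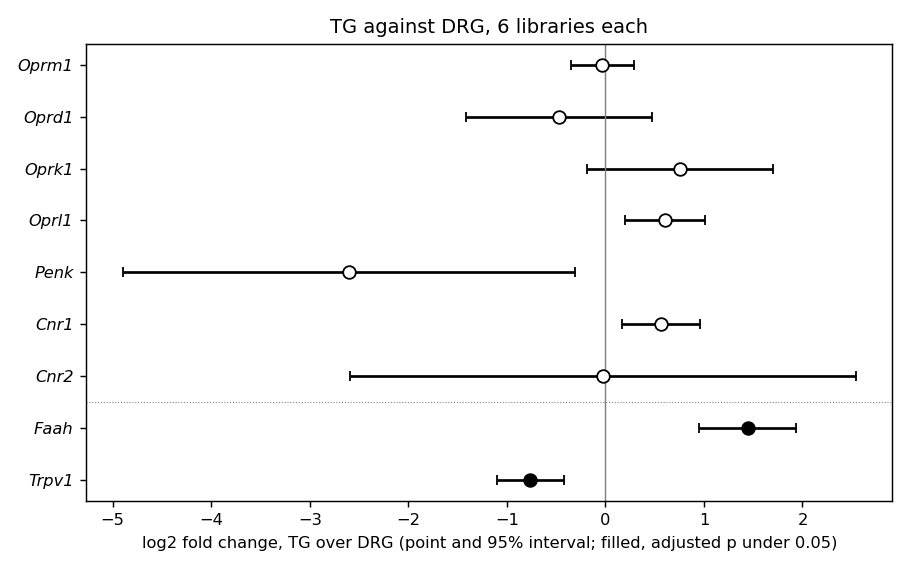
Log2 fold change of TG over DRG (horizontal axis) for the 7 members tested and, under the dotted line, Faah and Trpv1, with 95% intervals from edgeR; 6 libraries per ganglion, filled points have an adjusted p under 0.05. Only Faah at 1.44 and Trpv1 at -0.76 are filled, and the interval of Cnr2 is the widest.

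The signalling and enzyme genes around the receptors were followed as 12 lists with 66 genes, of which 63 were tested between the ganglia. Of these 63 genes, 1 was higher in TG and 1 was higher in DRG in edgeR, where 0.627% and 0.337% of all genes tested were. Faah, the fatty acid amide hydrolase that breaks down the endocannabinoid anandamide, ran from 30.5 through a median of 33.5 to 51.5 CPM in TG and from 8.45 through 11.95 to 19.0 CPM in DRG. Every TG library exceeded every DRG library. Its mean was 36.1 ± 7.71 CPM in TG and 13.2 ± 4.01 CPM in DRG (n = 6), a fold of 2.72 (log2 fold change 1.44, SE 0.251, edgeR adjusted p = 0.00499). The call was lost when either sex was tested alone (edgeR adjusted p = 0.724 in females and 0.066 in males).

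Trpv1, the capsaicin-gated channel of nociceptors that anandamide can also open, was lower in TG. It ran from 61.1 through 70.0 to 90.7 CPM in TG and from 83.5 through 131.8 to 171 CPM in DRG, with overlap. The mean was 74.5 ± 12.2 CPM in TG and 126.8 ± 29.8 CPM in DRG (n = 6), a fold of 1.70 (log2 fold change -0.76, SE 0.174, edgeR adjusted p = 0.0425). The call was lost in 12 of 21 alternatives, 10 of which left out 1 library, any but female TG 3 and male DRG 1 (edgeR adjusted p from 0.0506 to 0.177), and each sex alone did not reach it (0.86 in females and 0.424 in males). The direction held in all 21.

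Markers of some neuron classes moved between the ganglia beside these genes. The summed peptidergic nociceptor markers, 4 of 4 measured, were at 1796 to 4253 CPM in DRG and at 1059 to 2863 CPM in TG, and none passed the adjusted test. Of the 4 non-peptidergic markers, with sums of 1381 to 2538 CPM in DRG and 1091 to 1605 CPM in TG, 1 was lower in TG. The C-low-threshold markers, 4 of 4 measured, summed to 242.6 to 428.8 CPM in DRG and 124.8 to 308.1 CPM in TG, and 1 of them, Th, was lower in TG (log2 fold change -3.50, edgeR adjusted p = 1.39e-07). The cold-sensing markers, 2 of 2 measured, summed to 249.2 to 468.6 CPM in TG and 52.1 to 80.4 CPM in DRG, and 1 was higher in TG. The large neurofilament neuron markers, 5 of 5 measured, summed to 825.3 to 1323 CPM in DRG and 806.9 to 1165 CPM in TG, and none passed the adjusted test. The part of these neuron classes in the values of Faah, Trpv1 and the members was not tested.

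The other lists had no gene past the threshold between the ganglia. Among the Gi/o subunits Gnai3 (55.3 RPKM over the 12 libraries) and Gnai2 (40.8) were highest, with 0 of 5 called and a median log2 fold change of -0.24. The median over all genes tested was -0.01. Of the calcium channel pores that Gi/o signalling closes, Cacna1b, the N-type pore, was at 11.7 RPKM and Cacna1a, the P/Q-type pore, at 6.89, and 0 of 2 were called. Potassium channels opened by the same proteins were sparse. Kcnj3 was at 3.25 RPKM and Kcnj6 at 0.584, Kcnj5 had no count in any library, and 0 of the 3 tested were called. Of the adenylyl cyclases, Adcy2 (13.6 RPKM) and Adcy9 (7.63) led, and 0 of 9 tested were called.

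The genes that limit receptor signalling ranged widely in level. Rgs4, which speeds the shut-off of Gi/o proteins, was at 720.6 RPKM with a range of 235.2 to 1292 over the libraries, and Gnb5, a G protein beta subunit that pairs with some RGS proteins, was at 50.3. Arrb1, a beta-arrestin, was at 31.0 RPKM and Adrbk1, a receptor kinase, at 12.7. Of the 7 genes of the first list and the 6 of the second, 0 were called.

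RNA of genes listed for processing the precursors was measured in these mixed fractions, while RNA of the precursors was scarce. Ctsl, a protease reported to cut proenkephalin, was at 800.1 RPKM and Cpe, the carboxypeptidase that trims peptide hormones, at 349.3, and 0 of 6 processing genes were called. Of the peptide-degrading enzymes Dpp3 (24.9 RPKM) and Ece1 (20.0) led, with 0 of 6 called. Pomc, the precursor gene of beta-endorphin, was at 0.524 RPKM. Of the other opioid-related genes Ogfrl1 was at 21.6 RPKM, and 0 of 4 were called.

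On the endocannabinoid side, Gde1 (121.6 RPKM) and Abhd4 (79.1), which act in a route to anandamide, led the synthesis list with 0 of 5 called. Abhd12 (70.2) and Abhd6 (14.2), which hydrolyse the endocannabinoid 2-arachidonoylglycerol, led the breakdown list, where Faah was the 1 of 5 called. Trpv1 (27.4) and Cnrip1 (11), which encodes a protein that binds the Cnr1 receptor, led the list of other receptors and partners, where Trpv1 was the 1 of 5 called.

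**Figure D3:**
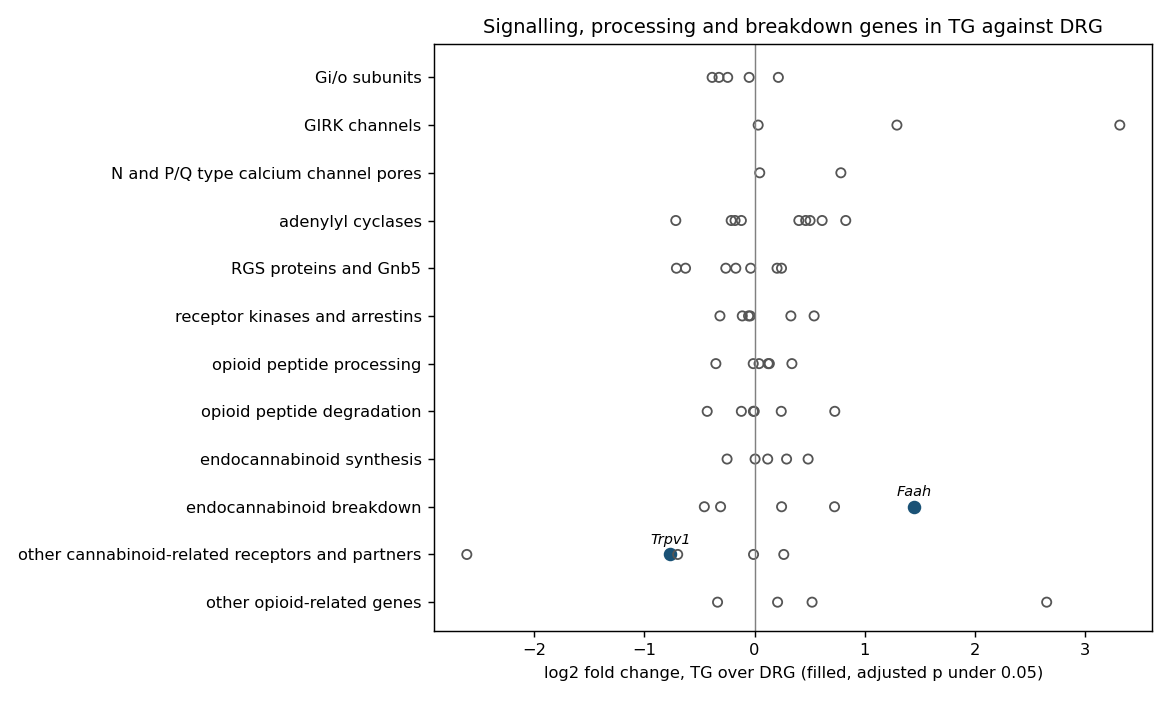
Log2 fold change of TG over DRG (horizontal axis) for the 63 tested genes of the 12 lists (rows), 1 point per gene, filled where the edgeR adjusted p is under 0.05. Faah at 1.44 and Trpv1 at -0.76 are the only filled points.

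The sexes were compared in each ganglion, 3 libraries against 3. In DRG 7 members were tested and none passed an adjusted p under 0.05 in edgeR, beside 0.0358% of the 13963 genes tested. In TG 6 members were tested and none passed, beside 0.0357% of 14009. The genes that passed were 5 in each ganglion, Xist and 4 Y-linked genes, so the libraries matched their sex labels. At an unadjusted p under 0.05 there was 1 of 7 members in DRG, beside 11.8% of all genes, and 2 of 6 in TG, beside 20.7%. With a fold above 2 as well, the criteria of the study without its minimum level, there were 0 of 7 in DRG, beside 4.97%, and 1 of 6 in TG, which was Oprd1, beside 7.41%. DESeq2 gave no adjusted p for Oprd1 in either ganglion or for Oprk1 and Penk in DRG, and none of Oprm1, Oprl1 and Cnr1 passed with it. Without overlap of the sexes, 1 of 7 members in DRG was higher in females and 0 in males, beside 7.85% and 9.63% of all genes, and in TG 1 of 6 was higher in females and 2 in males, beside 11.2% and 12.6%.

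Oprl1 was lower in females in both ganglia by its group means. In DRG these were 42.2 ± 9.46 CPM in females and 75.3 ± 24.1 CPM in males (n = 3). In TG they were 69.4 ± 13.1 and 105.9 ± 17.7 CPM (n = 3). The female over male log2 fold change was -0.82 in DRG (SE 0.324, edgeR adjusted p = 0.366) and -0.56 in TG (SE 0.241, edgeR adjusted p = 0.223). In DRG the sexes overlapped and in TG they did not, where 23.8% of all genes tested also did not overlap.

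Pooling the sex effect over both ganglia, a test added after the data were seen, gave Oprl1 a log2 fold change of -0.72 (SE 0.206, fold 1.65, edgeR adjusted p = 0.0418), where 7.88% of the 14829 genes tested passed. At an unadjusted p under 0.05 there were Oprl1 and Cnr1, 2 of 7 members, beside 26% of all genes. The call was lost in 10 of 19 alternatives: with library totals in place of TMM (adjusted p = 0.0908), with correction for GC content and length (0.0563), and without any 1 of 8 of the 12 libraries (0.0629 to 0.128). Those 8 were female DRG 1 and 2, female TG 1 and 2, male DRG 1 and 2 and male TG 1 and 2. The direction held in all 19.

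Several measures of the libraries moved with sex beside this value, neuronal markers among them. Summed peptidergic nociceptor markers were 1796 to 2006 CPM in female DRG and 2563 to 4253 CPM in male DRG, without overlap, and 1059 to 1867 and 1522 to 2863 CPM in female and male TG. Summed pan-neuronal markers had medians of 3812 CPM in female and 7139 CPM in male DRG, and of 3647 and 6233 CPM in TG, with overlap in both ganglia. Reads outside genes were 46.4% to 50.4% in female DRG and 38.2% to 42.6% in male DRG. In TG they overlapped, at 43.5% to 49.1% in females and 37.6% to 47.9% in males. Summed macrophage markers were 160.5 to 316.7 CPM in female TG and 62.6 to 143 CPM in male TG, and summed fibroblast markers were 969.1 to 1449 and 586.4 to 1262 CPM. Their part in the values of Oprl1 was not tested.

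Oprd1 had the largest fold between the sexes in TG among the 6 members tested, with 7.79 ± 2.79 CPM for females and 2.72 ± 1.23 CPM for males (n = 3) and no overlap. The fold was 2.97 (log2 fold change 1.57, SE 0.584), without passing adjustment in edgeR (adjusted p = 0.188). Its unadjusted p in edgeR was 0.021, which rose above 0.05 with correction for GC content and length (0.0753). It also rose above 0.05 without female TG 2 (0.134), male TG 1 (0.0501) or male TG 2 (0.0736). The direction held in all 14 alternatives. In DRG the means were 5.34 ± 3.38 CPM for females and 7.56 ± 3.98 CPM for males, and the log2 value was -0.51 (edgeR adjusted p = 0.848). The difference of the sex effect between the ganglia, TG less DRG, was 2.02 on the log2 scale (SE 0.970, edgeR adjusted p = 1). No gene passed this interaction test in edgeR, 292 (1.97%) did at an unadjusted p under 0.05, and DESeq2 called 0.

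Cnr1 was at 92.2 ± 24.6 CPM in female TG and 135.3 ± 21.6 CPM in male TG (n = 3), without overlap, and the log2 fold change was -0.50 (SE 0.262, edgeR adjusted p = 0.292). In DRG it was -0.33 (edgeR adjusted p = 0.729). For Oprm1 the sexes did not overlap in DRG, with the lowest female library at 58.2 CPM and the highest male library at 57.5 CPM, yet the log2 fold change was only 0.21 (SE 0.270, edgeR adjusted p = 0.817), and 17.5% of all genes tested had no overlap there. In TG the Oprm1 value was 0.13 (edgeR adjusted p = 0.776). Penk in DRG was at -0.65 (SE 1.26, edgeR adjusted p = 0.895), and in TG it failed the filter on low counts. Oprk1 was at 0.18 in DRG and -0.45 in TG (edgeR adjusted p = 0.966 and 0.591).

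None of the genes in the 12 lists passed the adjusted sex test in edgeR. Of the 66 listed genes, not all of which could be tested, 5 in DRG and 17 in TG had an unadjusted p under 0.05. Of all genes tested, 11.8% in DRG and 20.7% in TG did.

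**Figure D4:**
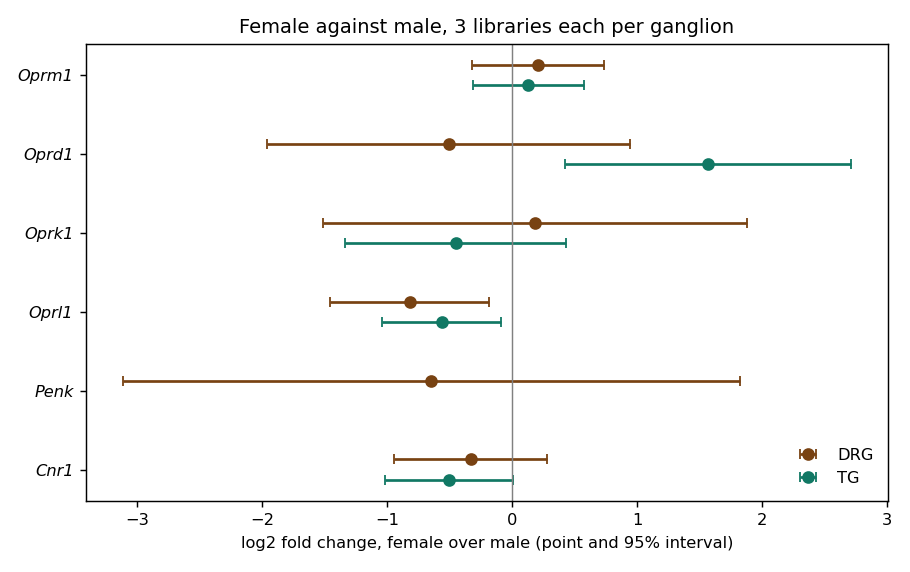
Log2 fold change of female over male (horizontal axis) in DRG and in TG with 95% intervals from edgeR, 3 libraries per sex, for the members tested other than Cnr2, whose SE was 1.96 in DRG and 1.42 in TG; Penk has no TG value. Oprl1 lies below 0 in both ganglia, and Oprd1 at 1.57 in TG lies opposite to its value of -0.51 in DRG.

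The genes whose levels varied most like each member over the 12 libraries were found by Pearson's r of log2 CPM among 9774 or 9775 genes with a mean of at least 10 CPM. The libraries differ in ganglion, sex and depth, which such an r also carries. For Oprl1 they were Ldhb, a lactate dehydrogenase subunit (r = 0.952), Tspan7, a tetraspanin (0.914), and Snn (0.907). For Cnr1 they were Strbp (0.892), Fbxo33 (0.891) and Gpr137c (0.860). For Oprm1, which varied little, they were Nhsl1 (0.858), the Notch ligand Dll4 (0.810) and the sodium-activated potassium channel Kcnt2 (0.803). For Oprk1 they were A830018L16Rik (0.929), Mdn1 (0.921) and the cadherin Cdh10 (0.919), and for Oprd1 they were Rab15 (0.875), the calcineurin subunit Ppp3ca (0.768) and 3830431G21Rik (0.768).

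For the sparsely counted Penk the closest were the potassium channel Kcnma1 (0.832), Fam167a (0.787) and Sdc1 (0.772), and for Cnr2 they were Hnrnph3 (0.847), Gm16515 (0.797) and Brwd1 (0.787). Among the members themselves the highest r over the 12 libraries was that of Oprk1 with Cnr1 (0.597), followed by Oprl1 with Cnr1 (0.495), and the lowest was that of Oprm1 with Cnr1 (-0.558).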

How the data were processed

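RNA of 12 sensory neuron fractions was sequenced after rRNA depletion as dUTP stranded libraries with short single reads. The authors aligned reads to mm9 with TopHat2 and counted them with HTSeq, and deposited whole-number read counts for each gene symbol, which were not normalized. The strand setting, annotation and tool versions are not given in the sources used here. Reads that match several places are not counted.

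Counts were tested with edgeR 4.0.16 (R 4.3.3; filterByExpr, TMM factors, quasi-likelihood F-test) with Benjamini-Hochberg adjustment across every gene in the fit. TG against DRG and the interaction were fitted on the 12 libraries together with 4 group means, and the sexes were compared in the 6 libraries of each ganglion. SE is the log2 fold change over the root of F, and intervals are normal 95% intervals. Lengths came from GENCODE of the same build, which matched 21657 of 22609 genes (95.8%). The scripts were tested on simulated data. Alternatives were DESeq2 1.42.0, other scaling, no filter, correction for GC content and length, the replicate block, single sexes, longest-transcript length and leaving out each library. Groups and replicate numbers came from the sample titles. The named genes were all members, in each list those with an adjusted p under 0.05 and the 2 with the highest RPKM, and the 3 genes most alike to each member. Of the genes so chosen, 1 is not reported here. Kcnj5 and Pomc were named after their values were seen. The members and lists were chosen with earlier results of these data known.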

Additional observations from a re-analysis of the deposited data

Results flagged for a closer look

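Pnoc in TG was singled out because 1 of 6 libraries lay far from the others. Female TG 3 was at 1.58 CPM, from 20 counts, the next library was at 0.345 CPM from 5 counts, and the remaining 4 had no count, so that the gap made up 0.781 of the whole range. The test was applied to 16 sets of 6 libraries, and chance alone sets apart about 1 in 20 where values are normally spread. That rate does not hold for counts that are mostly 0, as here, so the flag gives no measure of chance for Pnoc.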

How the results depend on the processing

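TG against DRG gave 143 genes in edgeR, 218 without the filter on low counts, 333 with DESeq2, 235 with correction for GC content and length, 5 in females only, 58 in males only, and 77 (without male DRG 2) to 231 (without female TG 3) with 1 library left out. The replicate numbers were not taken to pair the libraries, because no label says that they mark shared animals and only 4 of the 6 correlations of same-numbered TG and DRG libraries, which ran from 0.0277 to 0.216, exceeded 0.1. As a hint from the data, all 6 were positive and 4 of 6 TG libraries were closest to their own number. With the replicate block there were 534 calls, and 615 with the block and the GC and length correction. Oprl1 then passed (adjusted p = 0.0314 and 0.0309), as did Cnr1 with both (0.0397).

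The sex test in DRG gave 5 genes, 348 with DESeq2 and 5 to 10 with 1 library left out (10 without female DRG 3). With an unadjusted p under 0.05 and a fold above 2 it gave 694, 414 with the GC and length correction, 397 with it and the block, and 377 (without male DRG 2) to 1585 (without female DRG 3) with 1 library left out. In TG it gave 5, 9 without the filter, 817 with DESeq2 and 5 to 3394 with 1 library left out, the last without female TG 3, when Oprl1 passed (adjusted p = 0.0491). By p and fold it gave 1038, 312 with the correction, 255 with it and the block, and 585 (without female TG 2) to 2534 (without female TG 3). Over both ganglia it gave 1169, 2324 with DESeq2, 222 with the correction, 146 with it and the block, and 6 to 2620 with 1 library left out, the highest without female TG 3. Without female DRG 3 Cnr1 passed there (adjusted p = 0.0376). The block changed no other call of a member at an adjusted p under 0.05. At the unadjusted threshold of 0.05 in edgeR, the block alone did change calls. Oprd1 and Oprl1 between the sexes in TG no longer passed it, nor did Penk in TG against DRG. Oprk1 in TG against DRG passed it with the block and had not passed without it.

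Signs turned only for values near 0 or with a wide SE. Oprm1 in TG against DRG was 0.0134 without TMM, 0.0275 in males only and -0.0885 to 0.00345 with 1 library left out. Cnr2 was 0.0225 without TMM, 0.26 with the block, 0.19 with the block and the correction, 0.19 in females only and -0.58 to 0.75 with 1 library left out. Oprd1 was 0.56 in females only. Oprk1 between the sexes in DRG was -0.00054 with the block and -0.62 to 0.88 with 1 library left out. The share of Oprm1 among the classical receptors was 79.2% of raw counts in TG, and 86.0% in TG and 88.4% in DRG per kilobase of the longest transcript. Without TMM the median over all genes moved from 0.02 to 0.19 between the sexes in DRG and from 0.05 to 0.17 in TG. The cause of these shifts was not tested. Pdyn and Pnoc had few or no counts, as did Penk and Cnr2 in some libraries, so their levels there are poorly known. Penk had 0 counts in male TG 2, the library with the most reads in genes (15396090). It had 32 counts in female DRG 1, the library with the fewest (7511765). The part of depth in these values was not tested.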
